A study of Mus musculus with 4 samples.

Results

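Genes of glycolysis and of the hypoxia response were compared between tumour epithelial cells with and without Sox2-GFP, from squamous cell carcinomas of mouse skin. The 38 genes were a chosen list of 24 genes of sugar breakdown (17 glycolytic enzymes and lactate dehydrogenases, 4 glucose and lactate transporters and 3 regulators) and 14 other hypoxia-response genes. Of them, 34 were represented among the 18193 genes tested, 21 of the glycolysis genes and 13 of the hypoxia genes. Gapdh had no uniquely named probe set outside the array's control probe sets, which are described apart, and Gpi1, Eno1 and Bnip3l had no probe set that named them alone. The study measured RNA on 4 whole-genome Affymetrix arrays, 2 of Sox2-GFP-positive and 2 of Sox2-GFP-negative cells, from 2 chemically induced carcinomas of 2 mice. Sox2-GFP is a fluorescent reporter of Sox2, a transcription factor of stem and progenitor cells. Both populations had been sorted alive as Epcam-positive cells without CD45, CD31 and CD140a, so the same gates applied to both apart from the reporter. The labels give no strain, age or carcinogen, and the values below are deposited log2 levels, on which a difference of 1 is a doubling.

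Glycolysis splits glucose into pyruvate in the cytosol. Hexokinase traps glucose, phosphofructokinase commits it to breakdown, aldolase and triose phosphate isomerase make the 3-carbon sugars, and the later enzymes yield ATP and pyruvate, which lactate dehydrogenase can turn into lactate for export. When oxygen is short, prolyl hydroxylases no longer mark the factor HIF-1 alpha for destruction, and HIF-1 with its partner Arnt binds DNA around a short core, ACGTG in many targets, to raise transcripts of most of these enzymes and of genes for acid handling, mitophagy and matrix hydroxylation. Many carcinomas make lactate even where oxygen is present.

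The promoters of 6 genes, picked by their differences in these data, are shown: the 3 genes with the largest positive differences (Bnip3, Slc16a3 and Pfkl), Hk2, which lay lower in positive cells, and the lactate dehydrogenase pair Ldha and Ldhb, which differed in opposite directions. Each is the 250 bases before a RefSeq transcript start (GRCm38.p6), 5′ to 3′ on the gene's strand, with capitals marking ACGTG on either strand (written CACGT where it lies on the other strand). Overlapping matches form CACGTG, which is also the E-box bound by factors of the MYC family, and count once.
Bnip3 (chr7:138909507-138909756, minus strand): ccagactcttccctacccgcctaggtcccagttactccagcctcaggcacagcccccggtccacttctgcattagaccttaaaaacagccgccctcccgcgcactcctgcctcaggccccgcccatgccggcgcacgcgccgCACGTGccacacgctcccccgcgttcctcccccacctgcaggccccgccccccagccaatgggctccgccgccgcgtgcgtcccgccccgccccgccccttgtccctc
Slc16a3 (chr11:120948817-120949066, plus strand): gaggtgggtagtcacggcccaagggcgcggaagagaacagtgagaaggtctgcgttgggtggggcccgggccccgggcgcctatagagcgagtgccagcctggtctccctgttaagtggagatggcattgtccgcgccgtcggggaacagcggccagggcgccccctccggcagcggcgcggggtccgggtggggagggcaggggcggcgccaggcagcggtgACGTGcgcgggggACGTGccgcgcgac
Pfkl (chr10:78009808-78010057, minus strand): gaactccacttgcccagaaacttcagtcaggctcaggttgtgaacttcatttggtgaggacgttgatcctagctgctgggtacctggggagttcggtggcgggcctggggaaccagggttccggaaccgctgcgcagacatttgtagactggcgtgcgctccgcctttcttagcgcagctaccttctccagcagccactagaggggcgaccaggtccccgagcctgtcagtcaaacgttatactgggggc
Hk2 (chr6:82774455-82774704, minus strand): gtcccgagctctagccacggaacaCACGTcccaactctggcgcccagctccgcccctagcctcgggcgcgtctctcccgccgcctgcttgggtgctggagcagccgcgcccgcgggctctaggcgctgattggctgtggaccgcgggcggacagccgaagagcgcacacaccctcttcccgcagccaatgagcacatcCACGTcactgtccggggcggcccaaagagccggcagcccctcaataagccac
Ldha (chr7:46845554-46845803, plus strand): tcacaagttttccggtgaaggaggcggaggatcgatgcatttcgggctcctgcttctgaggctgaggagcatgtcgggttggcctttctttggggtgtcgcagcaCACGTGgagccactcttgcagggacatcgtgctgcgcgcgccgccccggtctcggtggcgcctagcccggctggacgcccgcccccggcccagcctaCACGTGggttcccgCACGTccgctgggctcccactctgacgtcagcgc
Ldhb (chr6:142507958-142508207, minus strand): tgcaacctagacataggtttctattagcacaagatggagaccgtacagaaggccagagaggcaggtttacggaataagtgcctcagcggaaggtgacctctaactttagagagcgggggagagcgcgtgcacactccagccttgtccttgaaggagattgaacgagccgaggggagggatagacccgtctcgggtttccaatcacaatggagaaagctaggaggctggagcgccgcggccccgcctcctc

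These windows held 1 match in Bnip3, 2 in Slc16a3 and 2 in Hk2, 3 in the Ldha window and none in Pfkl or Ldhb. A second listed Ldha start, not shown, had none (chr7:46846832-46847081). Of 35 members matched in the promoter table, 20 had a match before at least 1 listed start (57.1%), with 11 of 23 glycolysis genes and 9 of 12 other hypoxia genes. Over the promoters of all genes tested that could be matched, 22.5% of 14449 genes had one, and over every listed gene 18.5% of 27018. The windows of the members were richer in G and C (median 61.6%) than those of the genes tested (57.6%). The Slc16a3 and Ldha windows lie inside the annotated span of the gene, before an internal start. A match is a run of letters, and these arrays do not measure binding. Ndrg1, Slc2a3 and Bnip3l were not matched in that table.

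The deposited values had array medians of 5.49 to 5.61, and precision is limited by there being only 2 per group. The labels do not tie the arrays to single tumours, so p-values measure only the spread between these arrays. The sort reporter could not be checked from Sox2 itself, whose probe set read 3.50 and 3.27 in positive and 3.14 and 3.43 in negative arrays, below the lower quartile of each array (4.19 to 4.25). The keratin genes Krt5 and Krt14 were bright on all 4 arrays, at 13.24 to 13.32 and 12.99 to 13.07. Other keratin genes were dimmer, with Krt18 at 5.48 to 8.01 and Krt8 at 5.08 to 5.73. Of the sort markers, Epcam read 10.75 to 11.80, Pdgfra (CD140a) 4.85 to 7.83, Pecam1 (CD31) 5.57 to 8.44 and Ptprc (CD45) 4.18 to 4.98. Fibroblast transcripts were also present in spite of the sort against CD140a. Their 10 markers averaged 8.63 and 6.25 in positive and 10.79 and 9.16 in negative arrays, and none lay below the lower quartile on all arrays. In a bulk sample, fewer cells of a type and less RNA per cell cannot be told apart.

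As a whole the listed genes leaned towards the positive cells, with 28 of 34 differences above 0 against 66.0% of all genes. No member passed the limma test at a Benjamini-Hochberg adjusted p of 0.05 over all genes (0 of 34, against 0.0% of all genes; adjusted p = 0.208 to 1), as no gene of the array did. At an unadjusted p under 0.05, 9 members were higher in positive cells (7 of glycolysis and 2 other hypoxia genes), against 9.75% of all genes, and 0 were lower, against 5.22%. The median log2 difference, positive minus negative, was 0.42 over the 21 glycolysis genes and 0.47 over the 13 other hypoxia genes, beside 0.14 over all genes. Members were brighter than most genes, with 32 of 34 above the median level of all genes, and the shares of all genes given here include dim genes. With the dimmer genes left out, the medians were 0.44 (19 glycolysis genes) and 0.47 (13 hypoxia genes), beside 0.17 over the 9097 genes kept. In 14 of the 21 glycolysis genes and 5 of the 13 others, both positive arrays lay above both negative arrays, where 35.5% of all genes did so. The reverse order held in 3 glycolysis genes and none of the others, against 14.0% of all genes. Scaling to the bacterial spike-in transcripts, which had been added to the RNA, raises every difference by 0.79, so directions here are relative to the other genes of the array. Of the 34 members, 25 lay above the median difference of all genes, against 50.0% of all genes, a position that the spike-in scaling cannot change.

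**Figure D1:**
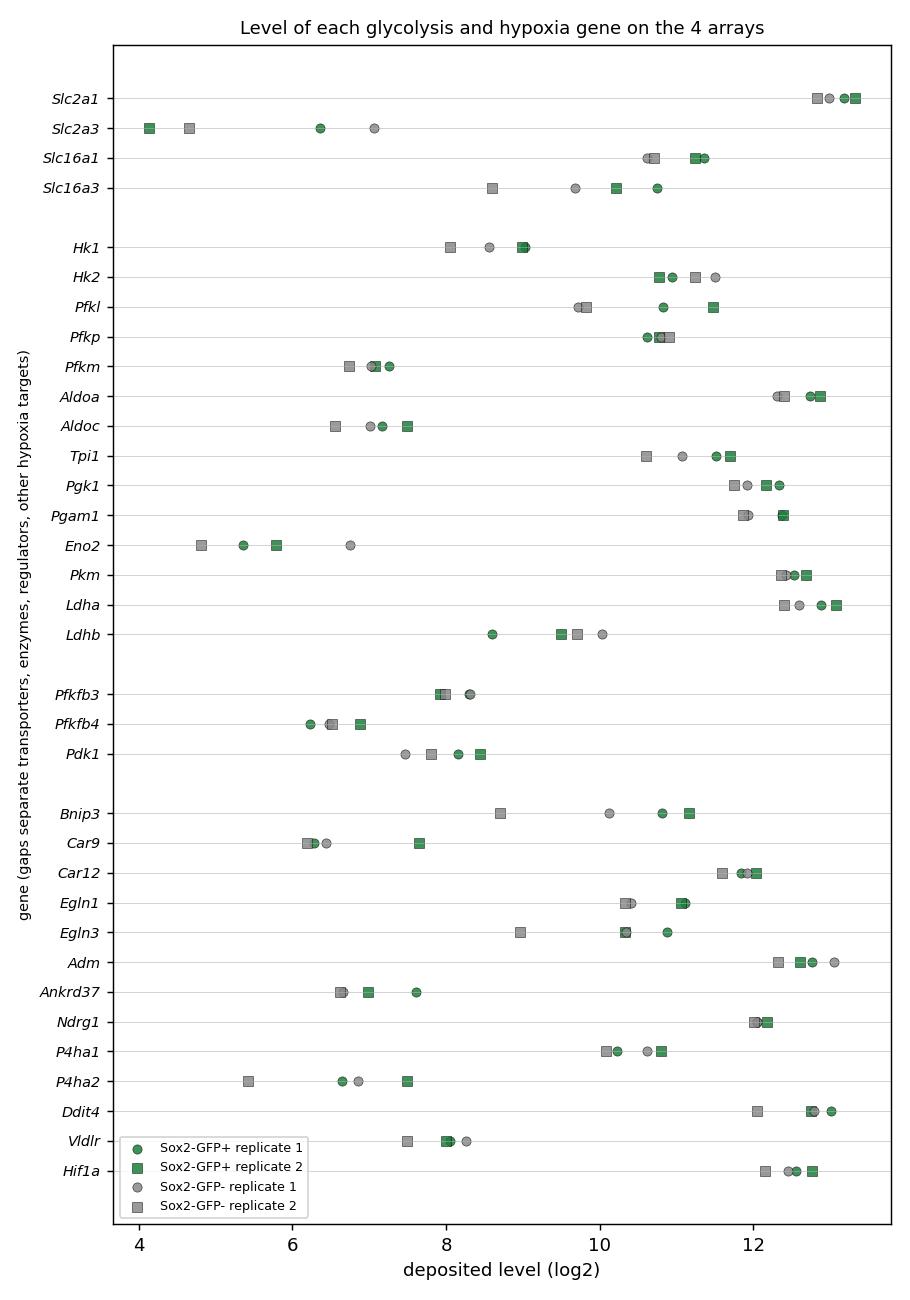
Deposited log2 level (x axis) of each of 34 genes (y axis) on the 4 arrays, with green for Sox2-GFP-positive and grey for Sox2-GFP-negative cells, circles for replicate 1 and squares for replicate 2. In Pfkl both positive arrays (10.82 and 11.47) lie clear of both negative arrays (9.72 and 9.82), while in Egln3, P4ha2 and Bnip3 the grey square of negative replicate 2 stands far to the left.

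**Figure D2:**
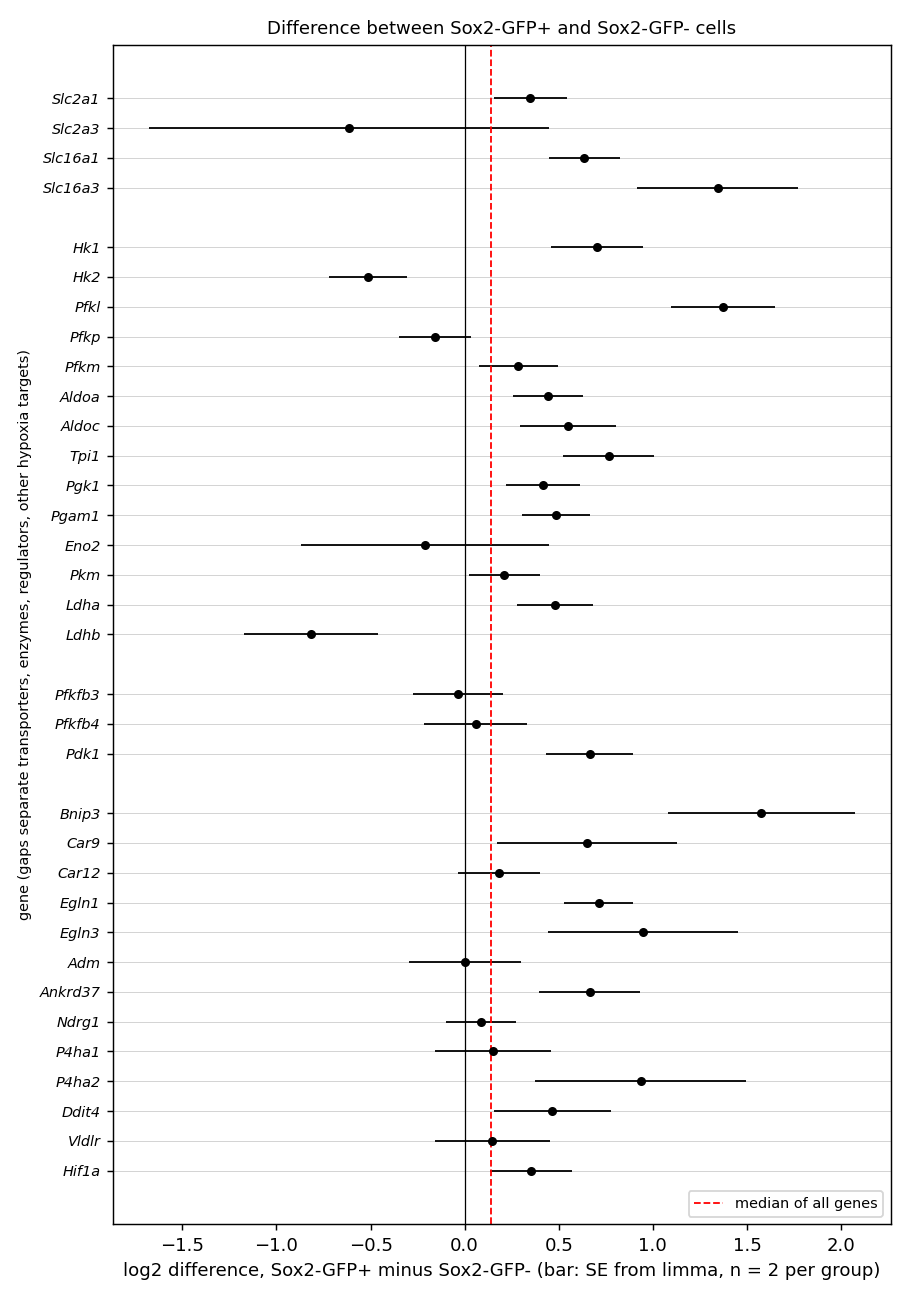
Log2 difference, Sox2-GFP-positive minus Sox2-GFP-negative (x axis), of each gene (y axis), with bars of 1 SE from limma (n = 2 per group) and a dashed line at the median of all genes, 0.14. Pfkl (1.37), Slc16a3 (1.34) and Bnip3 (1.58) lie farthest to the right, and Ldhb (-0.81), Slc2a3 (-0.62) and Hk2 (-0.51) farthest to the left.

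The lactate transporters differed by 0.64 and 1.34 on the log2 scale, and the glucose transporters by 0.35 and -0.62. Slc16a3 encodes MCT4, the monocarboxylate transporter that exports lactate from glycolytic cells, and read 10.75 and 10.22 in positive cells, compared with 9.68 and 8.59 in negative cells. The groups did not overlap, and the difference was 1.34 ± 0.43 (SE, n = 2 per group, 2.54-fold, limma adjusted p = 0.276). Without negative replicate 2 it was 0.80. Slc16a1, which encodes the lactate transporter MCT1, read 11.36 and 11.24 against 10.62 and 10.71, a difference of 0.64 ± 0.19 with close replicates in both groups (1.55-fold and an adjusted p of 0.255). Slc2a1, the widespread glucose transporter GLUT1, read 13.18 and 13.32 against 12.98 and 12.82, which is 1.27-fold (0.35 ± 0.19, adjusted p = 0.460). Slc2a3, the high-affinity glucose transporter GLUT3 of neurons and leukocytes, followed the replicate number rather than the reporter on its brightest probe set. That set read 6.36 and 4.13 in positive and 7.07 and 4.66 in negative arrays, and the next brightest ran alike. The dimmer sets showed less of this, at 5.04 and 4.09 against 4.40 and 4.35, and 4.05 and 3.89 against 4.39 and 3.71. Leukocyte markers (10 genes) on average also fell from replicate 1 to replicate 2, at 6.46 and 5.57 in positive and 7.16 and 6.28 in negative arrays. Cd3e and Cd79a among them rose in both groups. Fibroblast markers fell on average too, at 8.63 and 6.25 in positive and 10.79 and 9.16 in negative arrays. For endothelial markers the averages were 6.13 and 5.40 against 7.24 and 5.87. The part of any of these cells in the Slc2a3 values was not tested.

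At the entry of glycolysis the 2 hexokinases differed in opposite directions as deposited. Hk1, the hexokinase of most tissues, read 9.03 and 8.99 in positive cells, compared with 8.55 and 8.05 in negative cells (0.70 ± 0.24, 1.63-fold, adjusted p = 0.300). Its other probe set, nearly as bright, gave 0.43. Hk2, the inducible hexokinase of muscle and tumours and a textbook HIF-1 target, read 10.94 and 10.77 against 11.50 and 11.23. Both positive arrays thus lay below both negative arrays, by 0.51 ± 0.21 on average (adjusted p = 0.348), a direction that spike-in scaling turns to 0.28 above. On its brighter probe set, the change of Hk1 exceeded that of Hk2 by 1.22, whatever the scaling between arrays, since both genes are read on the same arrays.

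Phosphofructokinase, the committed step, showed the widest split among related enzymes. Pfkl, the liver-type subunit, read 10.82 and 11.47 in positive cells, compared with 9.72 and 9.82 in negative cells with no overlap. The difference was 1.37 ± 0.28 (2.59-fold), with the lowest adjusted p of all members (0.208), and a second probe set gave 1.42 while the dimmest of the 3 gave 0.33. Pfkp, the platelet-type subunit, read 10.62 and 10.77 against 10.79 and 10.91, lower by 0.16 ± 0.19 as deposited and higher by 0.63 under spike-in scaling. Its dimmest probe set was further apart, at 8.19 and 8.17 against 9.10 and 9.01 (-0.88, which the spike-in shift does not turn), and its 3 sets averaged -0.39. Pfkm, the muscle-type subunit, read 7.26 and 7.08 against 7.02 and 6.74 (0.29 ± 0.21). The change of Pfkl exceeded that of Pfkp by 1.53 and that of Pfkm by 1.09. Of the bifunctional enzymes that set the level of fructose 2,6-bisphosphate, an activator of phosphofructokinase, Pfkfb3 read 8.30 and 7.92 against 8.31 and 7.99, and Pfkfb4 read 6.23 and 6.87 against 6.47 and 6.51. Neither group stood apart from the other in these regulators.

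In the steps from the 6-carbon to the 3-carbon sugars and on to pyruvate, 6 genes had both positive arrays above both negative arrays by modest margins. Aldoa, the main aldolase, read 12.73 and 12.86 against 12.31 and 12.39 (0.44 ± 0.19), and its relative Aldoc 7.17 and 7.49 against 7.01 and 6.55 (0.55 ± 0.26). A dimmer Aldoc probe set gave -0.10 with overlapping groups, and averaging the sets put Aldoc at 0.22. Tpi1, triose phosphate isomerase, had the largest difference of this stretch, at 11.52 and 11.69 against 11.07 and 10.60 (0.77 ± 0.24, 1.70-fold, adjusted p = 0.275). Its 3 probe sets gave 0.63 to 1.01. Pgk1, a kinase that forms ATP, read 12.33 and 12.16 against 11.91 and 11.75 (0.42 ± 0.20). Pgam1, phosphoglycerate mutase, was the tightest pair of groups, at 12.38 and 12.39 against 11.93 and 11.87 (0.49 ± 0.18, 1.40-fold, adjusted p = 0.323). Pkm, pyruvate kinase, read 12.52 and 12.68 against 12.42 and 12.36 (0.21 ± 0.19), close to the median of all genes. Eno2, the neuronal enolase, had no consistent order, at 5.35 and 5.79 against 6.75 and 4.81.

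Gapdh, often used as a reference gene, was read by the array's control probe sets for its 3′ end, middle and 5′ end. The 3′ set read 13.51 and 13.61 in positive cells, compared with 13.46 and 13.35 in negative cells, a difference of 0.15. The middle set read 13.14 and 13.23 against 12.80 and 12.74 (0.42), and the 5′ set 13.16 and 13.12 against 12.69 and 12.71 (0.44). All 3 sets had positive arrays above negative ones, but the brightest showed the smallest difference. RNA integrity or saturation was not tested as a source of that gradient.

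At the branch between lactate and mitochondria, Ldha and Ldhb differed in opposite directions as deposited. Ldha, the subunit that favours lactate formation, read 12.87 and 13.08 in positive cells, compared with 12.60 and 12.40 in negative cells (0.48 ± 0.20, 1.39-fold, adjusted p = 0.363). Ldhb, the subunit of the heart-type enzyme, read 8.60 and 9.50 against 10.02 and 9.70 (-0.81 ± 0.36 and an adjusted p of 0.374), lower in positive cells. That direction was of full size in its brightest probe set alone, and the other 3 gave -0.17 to -0.02. Under spike-in scaling the Ldhb difference was -0.02, and without positive replicate 1 it was -0.36. Pdk1, a kinase that shuts pyruvate dehydrogenase and so keeps pyruvate from the mitochondria, read 8.15 and 8.44 against 7.47 and 7.80 (0.67 ± 0.23, 1.59-fold, adjusted p = 0.301). Its dimmest probe set ran the other way (-0.50), while the other 2 gave 0.42 and 0.46.

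Hypoxia-response genes outside glycolysis had a median difference as large as that of the enzymes but much less orderly arrays. Bnip3, a mitophagy receptor, had the largest difference of all members: it read 10.81 and 11.17 in positive cells, compared with 10.12 and 8.70 in negative cells (1.58 ± 0.50, 2.98-fold, adjusted p = 0.275). The groups did not overlap, but the negative arrays stood well apart from each other, and without negative replicate 2 the difference was 0.87. Egln1, the prolyl hydroxylase PHD2 that marks HIF-1 alpha and is itself a target of it, had close replicates on its brighter probe set, at 11.11 and 11.06 against 10.41 and 10.33 (0.71 ± 0.18, 1.64-fold, adjusted p = 0.236). Its other probe set gave 0.33, at 10.34 and 10.34 against 10.30 and 9.74. Egln3, the related hydroxylase PHD3, read 10.87 and 10.33 against 10.34 and 8.96 (0.95 ± 0.50), so that positive replicate 2 and negative replicate 1 met. Without negative replicate 2 the Egln3 difference was 0.26. Ankrd37, a small ankyrin protein, read 7.61 and 6.99 against 6.66 and 6.61 (0.66 ± 0.27). Hif1a, which encodes HIF-1 alpha and is regulated mostly at the protein, read 12.55 and 12.77 against 12.46 and 12.15 (0.35 ± 0.22).

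The acid-handling carbonic anhydrases did not separate the groups. Car9, the membrane carbonic anhydrase best known as a tumour hypoxia marker, was high in positive replicate 2 only, at 6.29 and 7.65 in positive and 6.44 and 6.20 in negative arrays. Without that array its difference was -0.03. Car12 read 11.83 and 12.04 against 11.91 and 11.59. The collagen prolyl hydroxylase subunits overlapped too on their brightest probe sets, with P4ha1 at 10.22 and 10.79 against 10.62 and 10.09, and P4ha2 at 6.64 and 7.49 against 6.85 and 5.42. The other P4ha1 probe set did separate the groups, at 8.49 and 8.64 against 8.29 and 7.35 (0.74). Ddit4, an inhibitor of mTORC1 also known as Redd1, read 13.01 and 12.75 against 12.78 and 12.04. Without negative replicate 2 the differences of P4ha2 and Ddit4 were 0.22 and 0.096. Vldlr, a lipoprotein receptor, read 8.05 and 7.99 against 8.26 and 7.49. For Adm, the vasodilator peptide adrenomedullin, the brighter probe set read 12.76 and 12.61 against 13.05 and 12.32, a difference of 0.00 ± 0.30. Its other probe set read 9.48 and 7.83 against 8.48 and 6.65, a difference of 1.09 that overlapped as well. Ndrg1, a stress-induced growth regulator, differed little on any of its 5 probe sets (0.00 to 0.09).

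Much of the hypoxia difference lay between the replicate 2 arrays. Negative replicate 2 had the lowest value in 13 of the 13 hypoxia genes and in 11 of the 21 glycolysis genes, against 27.4% of all genes, a count made after the values were seen. Relative to each gene's mean over the 4 arrays, the hypoxia genes averaged 0.19 and 0.34 in positive and 0.04 and -0.57 in negative arrays. For the glycolysis genes the averages were 0.14 and 0.16 in positive and 0.04 and -0.34 in negative arrays. Between the replicate 1 arrays alone the median difference was 0.00 for hypoxia and 0.23 for glycolysis genes, with 0.19 over all genes. Between the replicate 2 arrays it was 0.70 and 0.50, with 0.06 over all genes. Without negative replicate 2 the hypoxia median was 0.20, beside 0.16 over all genes, and without positive replicate 2 it was 0.24, beside 0.17. Without negative replicate 1 it was 0.69. All 13 hypoxia genes then had their positive arrays above the remaining negative array, against 46.5% of all genes. That count adds nothing new, since it follows from negative replicate 2 being the lowest array in each. Without negative replicate 2 that order held in 5 of 13, against 51.2% of all genes, and without positive replicate 2 in 7 of 13, against 55.2%. With any 1 array left out, the glycolysis median stayed between 0.32 and 0.50.

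**Figure D3:**
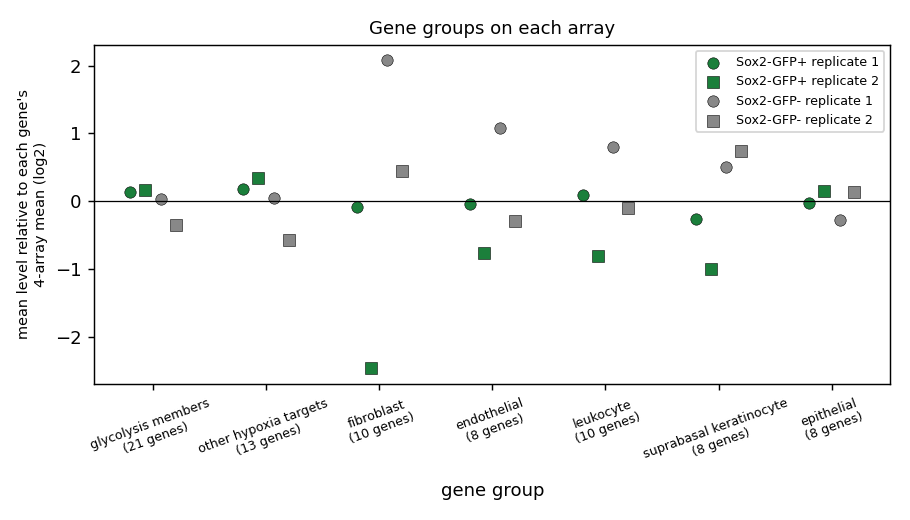
Mean log2 level of 7 gene groups (x axis) on each array relative to each gene's mean over the 4 arrays (y axis), with green for Sox2-GFP-positive, grey for Sox2-GFP-negative, circles for replicate 1 and squares for replicate 2. Negative replicate 2 (grey square) is the lowest array for the glycolysis (-0.34) and hypoxia genes (-0.57), whereas the fibroblast, endothelial and leukocyte markers are highest in negative replicate 1 (2.08, 1.08 and 0.80) and lowest in positive replicate 2.

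Markers of fibroblasts, endothelium, leukocytes and suprabasal keratinocytes were lower on average in the positive arrays, and those of skeletal muscle were higher. All 10 fibroblast markers were lower in positive arrays, with a median difference of -2.61, and their mean level was highest in negative replicate 1 (10.79) and lowest in positive replicate 2 (6.25). The 8 endothelial markers averaged 6.13 and 5.40 in positive and 7.24 and 5.87 in negative arrays, of which 6 were lower in positive cells. Of the 10 leukocyte markers, 7 were lower in positive cells, and in 8 the groups overlapped. Suprabasal keratinocyte markers (8 genes) averaged 8.80 and 8.06 against 9.56 and 9.80, and 6 of them were lower in positive cells. In 4 both positive arrays lay below both negative arrays, among them Krt1 at 11.43 and 9.92 against 12.57 and 12.66. In 2, Ivl and Krtdap, both lay above. Epithelial markers (8 genes) averaged 10.62 and 10.78 against 10.36 and 10.77. Skeletal muscle markers (7 genes), of interest for Pfkm and the aldolases, averaged 5.39 and 5.10 against 4.90 and 4.88. They were dim, with 1 above the median level of all genes and 1 below the lower quartile on all 4 arrays. Of the 7, 5 had their positive arrays above the negative ones, and the median difference was 0.53. Only 3 of the 6 erythroid markers were measured, at averages of 5.10 and 4.87 against 5.81 and 5.23. The lower average came from Alas2 (-2.08), while Hba-a1 (0.22) and Slc4a1 (0.26) were slightly higher in positive cells with overlapping groups. The part of these cells in the glycolysis and hypoxia differences was not tested.

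Probe sets of the same gene did not always give the same answer. Of 21 members with over 1 uniquely named probe set, 14 had differences of 1 sign throughout and 7 had both signs, and in 13 they spanned over 0.5 log2 units. Aldoa (5 probe sets, 0.11 to 0.54), Slc2a1 (3, 0.24 to 0.40) and Pgk1 (3, 0.30 to 0.45) held 1 direction with narrow spans. Hif1a gave -0.51 in the dimmest of 4 probe sets and 0.28 to 0.55 in the others, and Pfkfb3 gave -0.04 and 0.65. With a gene's probe sets averaged, the glycolysis median was 0.31 and the hypoxia median 0.52.

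**Figure D4:**
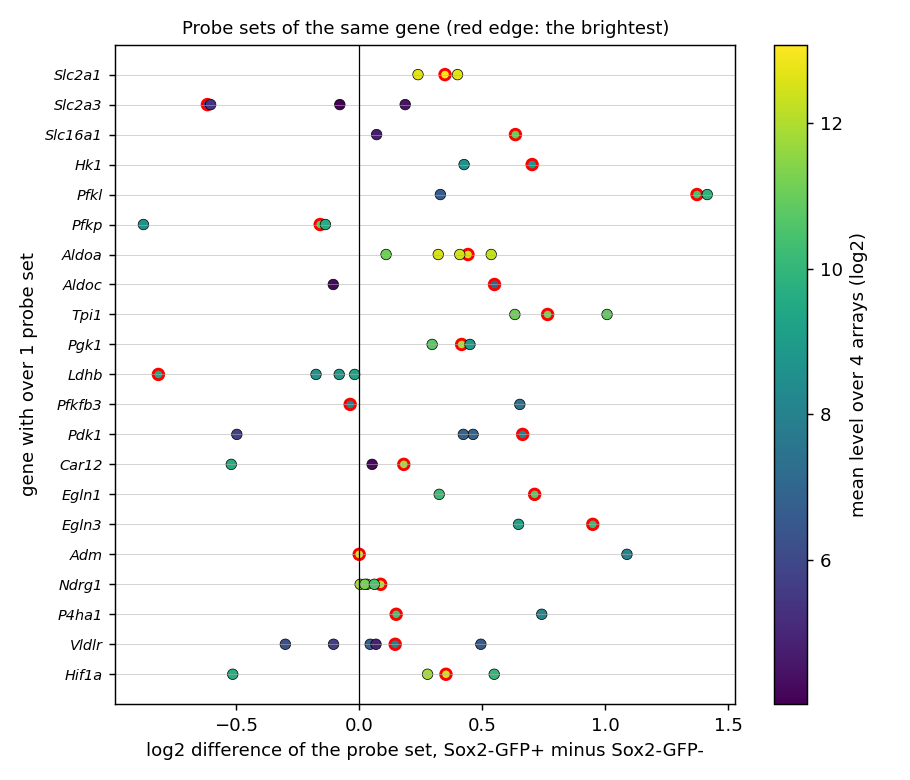
Log2 difference, Sox2-GFP-positive minus Sox2-GFP-negative, of each probe set (x axis) of the 21 genes with over 1 probe set (y axis), coloured by mean log2 level, with a red edge on the brightest, which stands for the gene. The sets of Aldoa, Pgk1 and Tpi1 lie to the right of 0 throughout, while those of Pdk1, Hif1a and Vldlr lie on both sides.

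Other genes of the same pathways were taken from lists that do not overlap the members, and none passed the limma test as fitted without a block (0 of 104). At an unadjusted p under 0.05, 16 were higher and 7 lower in positive cells (15.4% and 6.73%, against 9.75% and 5.22% of all genes). The hypoxia factor machinery (12 genes) had a median of 0.27, with 5 genes above (41.7%), 2 below (16.7%) and 5 overlapping, near the 35.5% and 14.0% of all genes. Epas1, which encodes HIF-2 alpha and is abundant in endothelium, read 9.40 and 9.58 in positive cells, compared with 10.66 and 9.81 in negative cells (-0.75 ± 0.33). Cited2, a competitor of HIF-1 for its coactivator, differed by 0.42, Cul2 by 0.30 and Elob by 0.29, the last 2 being parts of the ligase that degrades HIF-1 alpha. Further hypoxia targets (37 measured) had a median of 0.28, with 14 genes above (37.8%) and 5 below (13.5%), near the same shares of all genes. The 4 with the smallest p were Pgm1, which links glycogen to glucose 6-phosphate (9.01 and 8.94 against 7.77 and 7.60, 1.29 ± 0.19, adjusted p = 0.180), Gbe1, the glycogen branching enzyme (1.91 ± 0.51), Lox, a collagen crosslinker made by fibroblasts (-2.85 ± 0.76, adjusted p = 0.242, or 0.0308 with the replicate block), and Fam162a, a mitochondrial protein (0.87 ± 0.24). Vegfa, the angiogenic factor and a further target picked after its values were seen, read 11.58 and 11.87 against 11.25 and 10.74 (0.74 ± 0.26). At an unadjusted limma p under 0.05, 6 genes of this list were higher (16.2%) and 4 lower (10.8%) in positive cells, against 9.75% and 5.22% of all genes.

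Further genes of glycolysis and sugar entry (33 measured) had a median of 0.25, with 13 above (39.4%) and 6 below (18.2%), against 35.5% and 14.0% of all genes. Slc2a9, a urate and hexose transporter, read 8.99 and 9.39 against 7.82 and 7.30 (1.63 ± 0.28, 3.09-fold, adjusted p = 0.184). Ldhd, the mitochondrial D-lactate dehydrogenase, was lower (-1.15 ± 0.27), while Slc16a6, a relative of the lactate transporters, differed by 1.24 ± 0.32 and Tigar, a fructose bisphosphatase induced by p53, by 0.55 ± 0.19. In the pyruvate dehydrogenase list (11 measured, median 0.14, with 5 genes above, 45.5%, and 2 below, 18.2%), Pdk4, the kinase induced by fasting and lipid use, read 5.42 and 5.06 in positive cells, compared with 7.54 and 7.76 in negative cells (-2.42 ± 0.23, 5.34-fold lower, adjusted p = 0.157, or 0.0347 with the replicate block). Pdk3, a kinase of the same complex, differed the other way, by 1.0 ± 0.25, as did the opposing phosphatases Pdp2 (1.01 ± 0.26) and Pdp1 (0.62 ± 0.24).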

How the data were processed

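The authors deposited 1 table of log2 values, 45101 probe sets by 4 arrays, with values from 2.73 to 14.36; the log2 scale was read from the values. Bacterial transcripts were added before amplification and labelling, per the labels' protocols. The submitters' processing notes name R 2.14.0, and how probes were corrected, normalized and summarized is not given in the sources used here. No detection calls were used.

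The platform annotation gave 1 symbol to 34945 probe sets outside the 64 control probe sets, several to 932 and none to 9160. Each gene was represented by its brightest single-symbol probe set over the 4 arrays (18193 genes, no filter on dim genes). Groups came from the sample titles. The test was limma 3.58.1 in R 4.3.3 (lmFit, eBayes, group as the only term, 2 residual and 2.92 prior degrees of freedom) with Benjamini-Hochberg adjustment over all genes. The fit was also run on simulated data with noise of the size in these data. That run checked the size and sign of the differences, not which genes were called. Medians and counts over lists are descriptions without a test. Named genes are all members, and of each further list the 4 with the smallest p, plus Vegfa and marker genes chosen after their values were seen. The members, lists and tests were chosen with earlier results of these data known. Alternatives were the replicate number as a block, quantile normalization, equal medians, spike-in scaling, leaving out dimmer genes, mean probe sets, control probe sets kept, a trended prior, an adjusted p under 0.1 and leaving out each array. Leaving out each array for the counts of groups that do not overlap was added after seeing the data. Promoter sequences are RefSeq's (GRCm38.p6).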

Additional observations from a re-analysis of the deposited data

How the results depend on the processing

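With 2 arrays per group the test has 2 residual degrees of freedom, no detection calls limit the dim genes, and no member passed it as deposited. The replicate number is shared by both groups without a statement that it marks a tumour; across genes, replicate 1 minus replicate 2 in positive cells correlated with the same contrast in negative cells at r = 0.16, and genes are not independent. With the replicate block, 171 genes (0.94% of all) were called (13 higher and 158 lower) and no member (lowest adjusted p = 0.0960, Pfkl), while Lox (adjusted p = 0.0308) and Pdk4 (0.0347) of the further lists passed. A trended prior called 19 genes (1 higher, 18 lower) and no member, and an adjusted p under 0.1 called 0. Spike-in scaling called 12717 of 18193 genes (12559 higher, 158 lower) and 25 of 34 members, a similar share. It put the glycolysis median at 1.21 and the hypoxia median at 1.26, beside 0.93 over all genes. Its shift of 0.79 is the spike-in difference itself, and hybridisation controls, added after labelling, were lower in positive arrays by 0.38. It turned Slc2a3 (0.18), Hk2 (0.28), Pfkp (0.63), Eno2 (0.58) and Pfkfb3 (0.76) to above 0. Averaging the probe sets gave a glycolysis median of 0.31, Pfkfb3 at 0.31 and Car12 at -0.0945, equal medians gave Pfkfb3 at 0.046, and quantile normalization gave Adm at -0.062. Leaving out each array in turn gave hypoxia medians of 0.20 to 0.69, and 5 to 13 of 13 hypoxia genes with positive arrays above negative ones. The count of 5 came without negative replicate 2, against 51.2% of all genes. That of 13 came without negative replicate 1, against 46.5%, and follows from negative replicate 2 being the lowest array in each. For glycolysis genes the medians ranged from 0.32 to 0.50, and the counts from 14 to 15 of 21 genes. The share of all genes in that order rose from 35.5% to between 46.5% and 55.2%, so the glycolysis count stood closer to it than with all arrays. It kept the sign of 26 members and turned that of 8: Slc2a3 (-1.82 to 0.59), Eno2 (-1.18 to 0.76), Pfkfb3 (-0.23 to 0.15), Pfkfb4 (-0.26 to 0.38), Car9 (-0.031 to 1.34), Adm (-0.36 to 0.36), P4ha1 (-0.13 to 0.44) and Vldlr (-0.24 to 0.53). The causes were not tested.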

Other observations

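The pentose phosphate pathway branches from glycolysis at glucose 6-phosphate to make NADPH and the ribose of nucleotides. Of its 11 measured genes, 7 had both positive arrays above both negative arrays and 1 had them below, where 35.5% and 14.0% of all genes did so, and the median log2 difference was 0.32 beside 0.14. None passed the limma test over all genes. Prps2 and Prps1, the synthetases that activate ribose for nucleotides, differed by 0.91 ± 0.22 and 0.70 ± 0.23 (SE, n = 2 per group), and Rpe, an epimerase of the ribose branch, by 0.68 ± 0.21. H6pd, which oxidises hexose phosphate inside the endoplasmic reticulum, was lower, at 6.09 and 6.58 in positive cells, compared with 7.72 and 7.12 in negative cells (-1.08 ± 0.31, adjusted p = 0.249).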
